A study of Mus musculus with 192 samples.

Results

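Transcripts of the core splicing machinery were followed in single cells sorted from C57/Bl6J mouse fetal liver at embryonic day 14.5. The genes were the rows of the count table whose symbol starts with Srsf, Hnrnp, Sf3a, Sf3b or Snrp, with 4 rows ending in -ps left out, which gave 53 of 49466 genes: 11 Srsf, 20 Hnrnp, 3 Sf3a, 6 Sf3b and 13 Snrp genes. Cells labelled burst-forming unit-erythroid (BFU-E), an early progenitor restricted to red cell fate, filled one 96-well plate. Cells labelled colony-forming unit-erythroid (CFU-E), the stage that follows, filled the other. Cells carrying Ter119, CD41, CD16/32, Sca-1, CD3e, CD11b, CD45R or Ly-6G had been depleted from both, and propidium iodide, CD24, CD71 and CD117 served for the sort. No treatment or genotype separates the groups. The sources used here give neither the number of animals nor the sort gates.

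Splicing removes introns from a transcript and joins its exons. The spliceosome assembles on each intron from small nuclear ribonucleoproteins (snRNPs), whose RNAs carry a ring of Sm proteins encoded by Snrp genes, and the SF3a and SF3b complexes of the U2 snRNP hold the branch site. SR proteins (Srsf genes) bind exonic enhancers and mostly favour use of nearby splice sites, while hnRNP proteins coat the nascent transcript and often mask sites, so the balance between the families shapes which exons are kept. In red cell precursors, regulated exon use and intron retention are known for many transcripts, and SF3B1 and SRSF2 are among the genes mutated in human myelodysplastic syndromes with disturbed erythropoiesis.

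After wells with fewer than 100000 counts or 2000 genes were left out, 92 wells of the BFU-E plate and 89 of the CFU-E plate were kept, with 114288 to 3864040 and 131891 to 2992101 counts assigned to genes. Each cell was thinned to 100000 counts, so that 1 count is 10 CPM (counts scaled to a total of 1000000), and cells were summed per group. Each cell type is 1 sample on 1 plate and 1 sequencing lane, so cell type, plate and lane cannot be told apart, no p-value is given, and a level is a share of a cell's counts, not a number of molecules. Brackets give exact 95% intervals, which cover counting error alone, since reads copied by PCR and not tagged by molecule are not independent. Plates used 87 index pairs in common among kept cells, and the median correlation of 2 cells with the same index (0.436) was that of cells with other indices (0.438). The BFU-E plate held a cluster of 39 cells called granulocyte-monocyte-like from its markers, with 6076 CPM summed over the 17 granulocyte and monocyte markers against 105.5 CPM in the other 53 cells, and Mpo alone at 4123 against 52.8 CPM. The cluster was also high in the 10 stem and multipotent progenitor markers (2875 against 1184 CPM, with Cd34 at 1444 against 16.6 CPM) and in the 17 lymphoid markers (602 against 15.3 CPM), of which Flt3 (416 against 1.13 CPM) led its genes by fold. Of its 39 cells, 29 held more granulocyte and monocyte than erythroid markers, so the name stands for its markers as a whole and not for each cell. Those 53 cells were called erythroid-like, with 4675 CPM over the 20 erythroid markers against 669.5 CPM in the first cluster and 15151 CPM in CFU-E cells. Of the CFU-E cells, 3 held counts in at least 3 lymphoid markers. The erythroid comparison leaves out these 3 and the 39 cells.

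One library stood apart for several members. BFU-E cell 74, an erythroid-like cell with the fewest counts of the kept BFU-E wells (114288), held 11.6% of its counts on Rps and 13.6% on Rpl ribosomal protein genes, against highest values of 4.21% and 6.78% in any other BFU-E cell. It was the highest BFU-E cell for 10 of the 53 genes, among them Sf3b5 at 1290 CPM, Sf3b6 at 1180 CPM and Snrpe at 1140 CPM, where the next highest cells held 240, 260 and 280 CPM. Results that rest on it are given with and without it, a choice made after its values were seen.

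Scaled by total counts, the summed level of the 53 genes was close between the plates. It was 20447 CPM (20354 to 20539) on the BFU-E and 19974 CPM (19881 to 20067) on the CFU-E plate, or 2.04% and 1.997% of all counts. This closeness depends on the scaling. Trimmed mean of M-values scaling, described below, raised CFU-E levels against BFU-E and moved the members' median log2 fold from −0.51 to 0.04. Single cells ranged from 12240 through a median of 20625 to 27920 CPM on the BFU-E plate, and from 12990 through 19940 to 24340 CPM on the CFU-E plate. The cells of the plates overlapped over nearly their whole range. Within the BFU-E plate the sum was 20059 CPM in granulocyte-monocyte-like and 20732 CPM in erythroid-like cells. The other splicing genes, 177 rows from fixed lists of spliceosome subunits and regulators, summed to 27793 CPM on the BFU-E and 21092 CPM on the CFU-E plate, so the 2 sums did not keep the same proportion. The typical gene of each did not differ so: the median log2 fold was −0.51 for the measured members and −0.57 for the measured other splicing genes. Hnrnpk (2088 and 4211 CPM) and Hnrnpf (1226 and 2193 CPM) weigh heavily in the family's sum.

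Inside that sum the make-up differed. The Hnrnp genes held 61.2% of the family's counts on the BFU-E and 69.3% on the CFU-E plate. The Srsf share was 18.5% against 15.5%, and the Sf3b share was 11.3% against 7.94%. For Snrp the shares were 6.31% and 5.29%, and for Sf3a 2.60% and 1.97%. Most of the Hnrnp gain lay in 2 genes: Hnrnpk held 10.2% of the family's counts on the BFU-E and 21.1% on the CFU-E plate, and Hnrnpf held 5.996% and 10.98%. The other 18 Hnrnp genes together held a smaller share on the CFU-E plate, as the stacked plot of the family's counts shows.

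**Figure D1:**
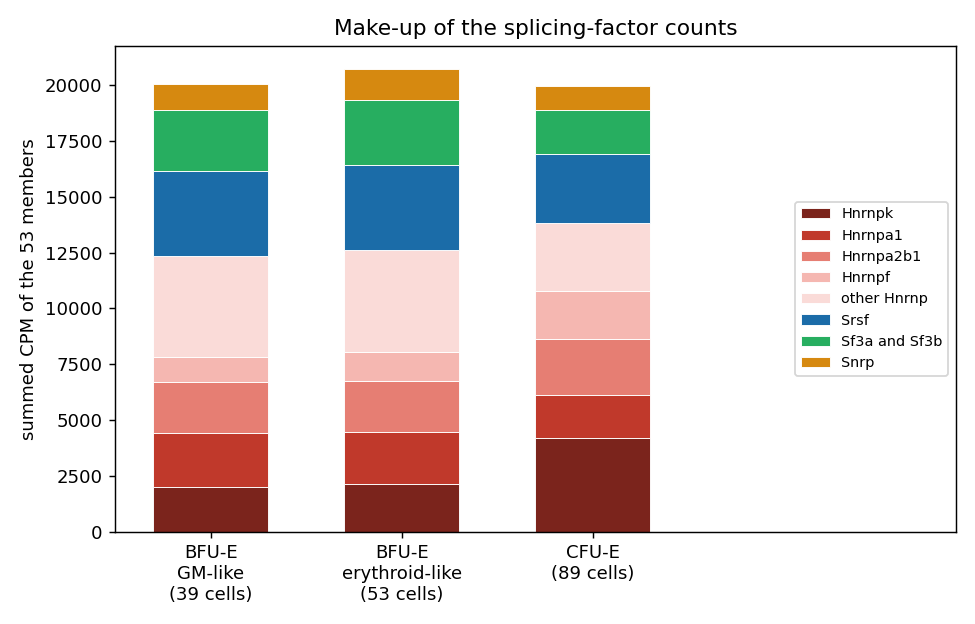
Stacked bars of the summed level (CPM, linear axis) of the 53 genes in granulocyte-monocyte-like (GM-like) BFU-E, erythroid-like BFU-E and all CFU-E cells, divided by gene class with 4 Hnrnp genes shown on their own. Scaled by total counts, the bars are of nearly equal height (20059, 20732 and 19974 CPM), while Hnrnpk rises from 2007 and 2147 CPM to 4211 CPM.

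A gene was called measured when its mean over both plates was at least 5 CPM, which 50 of the 53 genes reached. Folds were judged on log2(CPM + 1), which understates the difference of low genes. Scaled by total counts, 1 of 50 was higher by at least 2-fold on the CFU-E plate (Hnrnpk), where 5.98% of all 9445 measured genes were, and 12 of 50 were at least 2-fold lower, where 32.5% of all genes were. The 12 were Hnrnpa0, Hnrnpd, Hnrnph3, Hnrnpl, Hnrnpr, Hnrnpul2, Sf3b5, Sf3b6, Snrpd2, Snrpd3, Snrpe and Srsf2, and 37 genes lay within 2-fold. The median log2 fold was −0.51 for the 50 genes and −0.57 for all genes, and 27 of the 50 lay above the median of all genes. The members' counts are thus near or below the background in both directions.

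Scaling moved this split. Trimmed mean of M-values (TMM) factors placed the median of all genes at 0.01 and of the members at 0.04, with 4 members higher (Hnrnpf, Hnrnpk, Snrpn, Srsf6) where 14.6% of all genes were, and 2 lower (Hnrnpa0, Srsf2) where 17.9% were. Median-of-ratios scaling gave the same 4 and 2 genes, beside 15.8% and 16.9% of all genes. In erythroid cells only, scaled by total counts, no member was at least 2-fold higher (5.79% of all genes) and 12 were lower (30.5%), 11 of them shared with the full comparison, with a median of −0.64 against −0.54 for all genes. With TMM the erythroid comparison held 3 higher members (Hnrnpf, Hnrnpk and Srsf6, beside 14.8% of all genes). It held 4 lower ones (Hnrnpa0, Sf3b5, Snrpd3 and Srsf2, beside 14.9%). Cell 74 was included there, and TMM was not repeated without it. Scaled by total counts, the erythroid log2 folds of Sf3b5 and Snrpd3 were −1.71 and −1.80 with that cell. They were −1.36 and −1.37 without it, so both TMM calls may rest on it. Without cell 74, and scaled by total counts, 0 members were higher (5.95% of all genes) and 10 lower (32.5%) in the full comparison, and 0 higher (5.83%) and 9 lower (30.2%) among erythroid cells. Hnrnpk then stood at a log2 fold of 0.998, just under the line. Only Hnrnpa0 and Srsf2 were at least 2-fold lower in all 7 of these settings, and none was at least 2-fold higher in all of them. Levels per plate below are scaled by total counts.

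**Figure D2:**
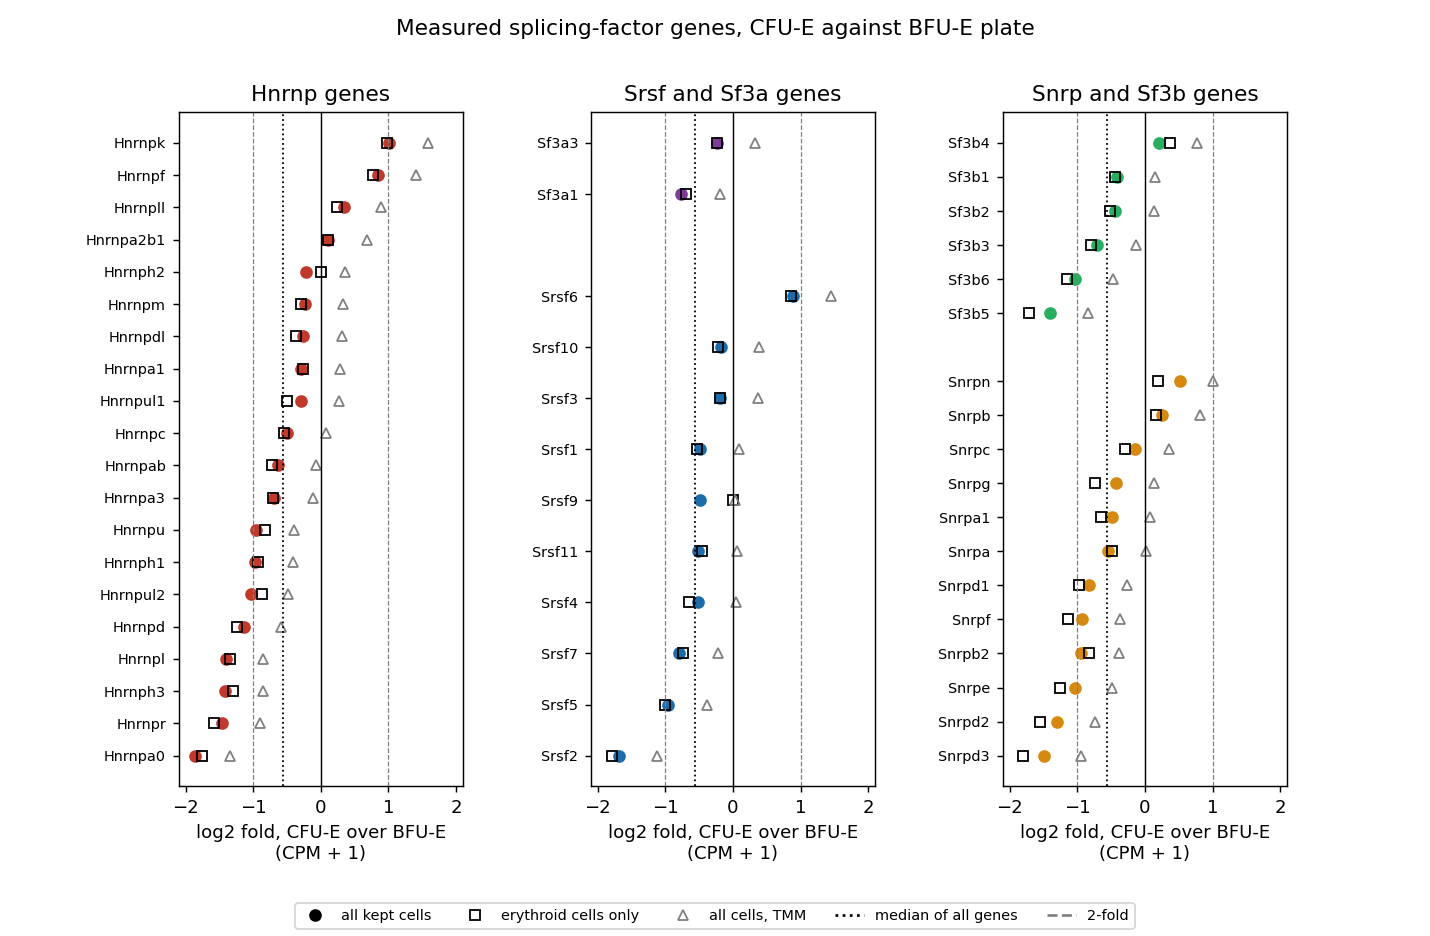
Log2 fold (CPM + 1) of CFU-E over BFU-E for the 50 measured genes, by class: filled circles for all kept cells, open squares for erythroid cells only, triangles for all cells with TMM scaling. The dotted line is the median of all genes (−0.57) and dashed lines mark 2-fold; the triangles lie about 0.57 to the right of the circles.

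Promoter sequences are given to show the DNA before the starts of the SR genes with the highest and the lowest log2 fold, Srsf6 (0.88) and Srsf2 (−1.69), of the lowest Hnrnp gene, Hnrnpa0 (−1.86), and of Hnrnpa2b1 (0.11 with total-count scaling, 0.68 with TMM). The stretch before the start of Hnrnpk, the highest Hnrnp gene, holds annotated exon bases and is not printed. Each is the 200 bases before the RefSeq start on the gene's own strand (GRCm38.p6). They lie at chr2:162931308-162931507 on the plus strand for Srsf6, and on the minus strand at chr11:116853095-116853294 for Srsf2, chr6:51469895-51470094 for Hnrnpa2b1 and chr13:58128557-58128756 for Hnrnpa0. Capitals mark matches, on either strand, to the GC box (GGGCGG), the CCAAT box (CCAAT) or the TATA box (TATAAA).
Srsf6: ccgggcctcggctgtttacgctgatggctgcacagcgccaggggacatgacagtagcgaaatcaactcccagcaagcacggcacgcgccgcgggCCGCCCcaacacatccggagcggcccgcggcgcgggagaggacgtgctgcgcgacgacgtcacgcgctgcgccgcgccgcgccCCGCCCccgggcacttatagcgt
Srsf2: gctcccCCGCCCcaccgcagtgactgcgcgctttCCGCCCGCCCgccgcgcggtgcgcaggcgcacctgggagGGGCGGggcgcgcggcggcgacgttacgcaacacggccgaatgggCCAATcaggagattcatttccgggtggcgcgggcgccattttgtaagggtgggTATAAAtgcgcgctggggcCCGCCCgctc
Hnrnpa2b1: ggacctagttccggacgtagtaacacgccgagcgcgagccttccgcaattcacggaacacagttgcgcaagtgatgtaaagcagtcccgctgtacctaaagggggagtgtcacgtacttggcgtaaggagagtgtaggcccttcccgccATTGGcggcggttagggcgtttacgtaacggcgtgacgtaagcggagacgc
Hnrnpa0: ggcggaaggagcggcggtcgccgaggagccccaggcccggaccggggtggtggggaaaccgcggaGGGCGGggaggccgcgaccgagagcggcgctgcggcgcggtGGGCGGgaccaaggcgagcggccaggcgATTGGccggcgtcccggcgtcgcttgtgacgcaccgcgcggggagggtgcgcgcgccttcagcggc
The 4 stretches held 32, 30, 22 and 35 CpG dinucleotides in that order. Srsf6 had 2 GC boxes. Srsf2 had 5 GC boxes, 2 of them overlapping, with 1 CCAAT box and 1 TATA box. Hnrnpa0 had 2 GC boxes and 1 CCAAT box, and Hnrnpa2b1 had 1 CCAAT box. None of these windows held the letters of the erythroid GATA motif (AGATAA), the ETS motif (CCGGAAG) or the E-box (CACGTG), which says only that these letters are absent there.

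RefSeq starts were found for 46 of the 53 genes, 63 starts in all, and the window of 200 bases before each was searched on both strands. GC boxes were in 37 of the 63 (58.7%) and in 31.05% of all 32851 windows, and CCAAT boxes in 26 (41.3%) and in 29.3% of all. The ETS letters were in 15 (23.8%), against 6.29% of all windows. The GATA letters were in 3, against 7.80% of all, the E-box in 5, against 5.26%, and the TATA box in 4, against 9.96%. The members' windows had a median of 18 CpG dinucleotides and 60.5% G and C, against 5 and 53% in all windows. The family's windows were thus richer in CpG than the typical window of all genes, whether measured here or not. Windows of other measured genes were not compared.

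Among the SR genes, Srsf6 was the only one of 10 measured that was above 0 on the log2 scale with total-count scaling. Srsf6 (chr2:162931528-162937121, plus strand), an enhancer-binding SR protein, stood at 294 CPM (283 to 305) on the BFU-E and 543 CPM (528 to 558) on the CFU-E plate, 1.85-fold higher (1.76 to 1.94). Its level per cell ran from 0 through 250 to 890 CPM in granulocyte-monocyte-like BFU-E, from 0 through 280 to 770 CPM in erythroid-like BFU-E, and from 60 through 480 to 1230 CPM in CFU-E cells. The groups overlapped widely, and 76.7% of CFU-E cells that lacked lymphoid markers lay above the erythroid-like BFU-E median. Srsf6 ranked 21st among the 53 genes per kilobase of exon in BFU-E (61.1 CPM per kilobase) and 8th in CFU-E cells (113 CPM per kilobase).

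Srsf2, also known as SC35, a speckle protein that binds exonic enhancers, lay at the other end. It stood at 115 CPM (108 to 122) on the BFU-E and 34.9 CPM (31.2 to 39.1) on the CFU-E plate, 3.29-fold lower (2.90 to 3.75). Per cell it ran from 0 through 110 to 410 CPM in granulocyte-monocyte-like BFU-E, from 10 through 110 to 350 CPM in erythroid-like BFU-E, and from 0 through 30 to 110 CPM in CFU-E cells. No CFU-E cell without lymphoid markers exceeded the erythroid-like BFU-E median, although the low ends of the groups overlapped. The gene (chr11:116849901-116853094, minus strand) shares 15.6% of its exon bases with Mettl23 on the opposite strand, which stood at 48.7 and 59.6 CPM. The library type does not mark strand, so reads of shared bases cannot be assigned with certainty. Within a plate the ratio of Srsf6 to Srsf2 needs no scaling between plates, and it was 2.56 (2.38 to 2.75) on the BFU-E and 15.5 (13.8 to 17.5) on the CFU-E plate. It was 2.81 in granulocyte-monocyte-like and 2.397 in erythroid-like BFU-E cells, so both parts of the BFU-E plate lay on the same side.

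The remaining SR genes lay between these ends. Srsf3, a small SR protein with roles in splicing and mRNA export, was the most abundant, at 1376 CPM (1352 to 1400) on the BFU-E and 1203 CPM (1181 to 1226) on the CFU-E plate. Its log2 fold was −0.19 with total-count scaling and 0.38 with TMM, so its direction depends on the scaling. The same held for Srsf1, the founding family member, at 155 CPM (147 to 164) and 111 CPM (104 to 118; −0.48, or 0.09 with TMM), and for Srsf10, an atypical SR protein that represses splicing when dephosphorylated, at 454 CPM (441 to 468) and 400 CPM (387 to 414; −0.18, or 0.39 with TMM). Srsf5, an enhancer-binding protein, was 1.94-fold lower in CFU-E cells (1.84 to 2.04), at 497 CPM (483 to 512) against 256 CPM (246 to 267), and just missed the 2-fold line. Srsf7, which also serves mRNA export, stood at 644 and 371 CPM, so its ratio to Srsf6 crossed 1: Srsf6 over Srsf7 was 0.457 (0.436 to 0.478) on the BFU-E and 1.46 (1.40 to 1.53) on the CFU-E plate. Srsf4, Srsf9 and Srsf11 had log2 folds from −0.52 to −0.48 with total-count scaling and from 0.04 to 0.06 with TMM, and Srsf4 shares 43.02% of its exon bases with Gm12992. Srsf12 had no count in any kept cell, which allows up to 0.326 CPM on the BFU-E and 0.337 CPM on the CFU-E plate (3 counts per group, counting error only).

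Of the 20 Hnrnp genes, Hnrnpk and Hnrnpf had the highest log2 folds. Hnrnpk, a KH-domain protein that binds C-rich RNA and DNA (chr13:58391142-58403343, minus strand), stood at 2088 CPM (2059 to 2118) on the BFU-E and 4211 CPM (4169 to 4254) on the CFU-E plate, 2.02-fold higher (1.98 to 2.05). Its level per cell ran from 1100 through 1980 to 3000 CPM in granulocyte-monocyte-like BFU-E, from 300 through 2220 to 3120 CPM in erythroid-like BFU-E, and from 1350 through 4090 to 6470 CPM in CFU-E cells. Among CFU-E cells that lacked lymphoid markers, 97.7% lay above the erythroid-like BFU-E median, while the lower CFU-E cells overlapped the upper BFU-E cells. Its lowest BFU-E value was that of cell 74.

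Hnrnpf, which binds runs of G and is a close relative of Hnrnph1 and Hnrnph2, was 1.79-fold higher (1.75 to 1.83) in CFU-E cells, at 2193 CPM (2162 to 2224) against 1226 CPM (1204 to 1249). Per cell it ran from 410 through 1160 to 1640 CPM in granulocyte-monocyte-like BFU-E, from 180 through 1300 to 2350 CPM in erythroid-like BFU-E, and from 1040 through 2150 to 3690 CPM in CFU-E cells. A share of 98.8% of the CFU-E cells without lymphoid markers lay above the erythroid-like median, again with overlap at the margins. Its relatives did not share the difference: Hnrnph1 stood at 663 and 336 CPM and Hnrnph2 at 260 and 223 CPM. Hnrnpf over Hnrnph1 was 1.85 (1.79 to 1.91) on the BFU-E and 6.53 (6.28 to 6.79) on the CFU-E plate, and Hnrnpf over Hnrnph2 was 4.72 (4.52 to 4.93) and 9.83 (9.39 to 10.3).

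**Figure D3:**
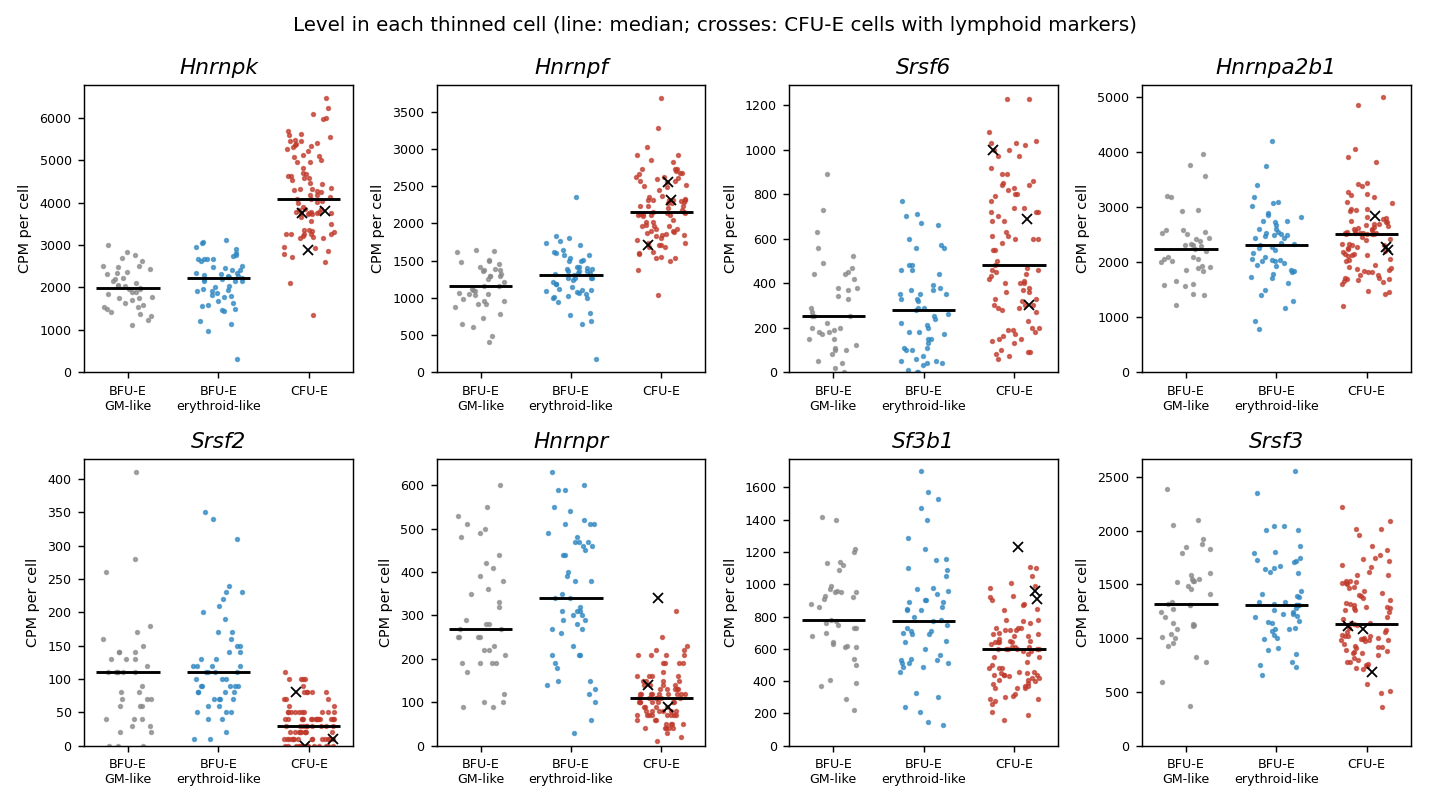
Level of 8 members in each thinned cell (CPM, linear axes), with granulocyte-monocyte-like (GM-like) BFU-E in grey, erythroid-like BFU-E in blue and CFU-E in red; lines mark medians and crosses the 3 CFU-E cells with lymphoid markers. CFU-E medians lie above both BFU-E groups for Hnrnpk, Hnrnpf and Srsf6, below both for Srsf2 and Hnrnpr, and near them for Hnrnpa2b1.

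At the low end, Hnrnpa0, an hnRNP that binds AU-rich elements, lay on the same chromosome as Hnrnpk (chr13:58125879-58128556, minus strand) and stood at 24.2 CPM (21.2 to 27.6) on the BFU-E and 5.96 CPM (4.46 to 7.79) on the CFU-E plate, 4.07-fold lower (3.01 to 5.60). It had a count in 67.4% of BFU-E and 31.5% of CFU-E cells at equal depth. Its level was higher in granulocyte-monocyte-like (30.5 CPM) than in erythroid-like BFU-E cells (19.6 CPM), and both lay above the CFU-E value. Per cell it ran from 0 through 10 to 200 CPM, from 0 through 10 to 100 CPM and from 0 through 0 to 50 CPM in the 3 groups, close to the value of 1 count in most cells, and the groups overlapped.

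Hnrnpr, a close relative of Syncrip with several RNA-binding domains, was 2.78-fold lower (2.59 to 2.98) in CFU-E cells, at 118 CPM (111 to 125) against 328 CPM (316 to 339). Per cell it ran from 90 through 270 to 600 CPM in granulocyte-monocyte-like BFU-E, from 30 through 340 to 630 CPM in erythroid-like BFU-E, and from 10 through 110 to 340 CPM in CFU-E cells. No CFU-E cell without lymphoid markers exceeded the erythroid-like median, and the ranges overlapped below it. Hnrnpk over Hnrnpr was 6.37 (6.13 to 6.62) on the BFU-E and 35.7 (33.6 to 37.99) on the CFU-E plate.

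The 2 core hnRNP proteins that bind exonic silencers, Hnrnpa1 and Hnrnpa2b1, had like levels on both plates. Hnrnpa1 stood at 2356 CPM (2325 to 2388) on the BFU-E and 1929 CPM (1901 to 1959) on the CFU-E plate, a log2 fold of −0.29 that turned to 0.28 with TMM. Hnrnpa2b1 stood at 2291 CPM (2260 to 2322) and 2469 CPM (2437 to 2502), a log2 fold of 0.11, or 0.68 with TMM. Hnrnpk over Hnrnpa1 was 0.886 (0.869 to 0.904) on the BFU-E and 2.18 (2.14 to 2.22) on the CFU-E plate, which puts Hnrnpk behind Hnrnpa1 on the first plate and ahead on the second. Per kilobase of exon, the order in BFU-E cells was Hnrnpa1 (747 CPM per kilobase), Hnrnpf (402), Hnrnpa2b1 (348), Hnrnpk (323) and Snrpb (240). In CFU-E cells it was Hnrnpf (720), Hnrnpk (651), Hnrnpa1 (612), Hnrnpa2b1 (375) and Snrpb (285). Lengths are the merged exons of all annotated transcripts, which understates genes with long minor transcripts such as Hnrnpr (22199 bases).

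Another pair of close relatives parted within the Hnrnp class. Hnrnpl, which binds CA-rich RNA, stood at 69.3 CPM (64.1 to 74.9) on the BFU-E and 25.5 CPM (22.3 to 29.05) on the CFU-E plate, while Hnrnpll, known for CD45 exon skipping in lymphocytes, stood at 17.3 CPM (14.7 to 20.2) and 22.1 CPM (19.2 to 25.5). The ratio of Hnrnpll to Hnrnpl was 0.249 (0.208 to 0.297) and 0.868 (0.713 to 1.05). Of the other genes at least 2-fold lower, Hnrnph3 stood at 94.7 and 34.7 CPM, Hnrnpd, which binds AU-rich elements, at 36.6 and 16.2 CPM, and Hnrnpul2 at 33.7 and 15.96 CPM. The remaining 10, Hnrnpa3, Hnrnpab, Hnrnpc, Hnrnpdl, Hnrnph1, Hnrnph2, Hnrnpm, Hnrnpu and Hnrnpul1 with Hnrnpa1, had log2 folds from −0.98 to −0.22 with total-count scaling. With TMM these 10 ran from −0.41 to 0.35, so no common direction can be given. Hnrnpab shares 29.1% of its exon bases with Phykpl.

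Of the branch-site complexes, Sf3a1, the SF3a subunit that also contacts the U1 snRNP, stood at 212 CPM (203 to 222) on the BFU-E and 124 CPM (117 to 132) on the CFU-E plate, a log2 fold of −0.76. Sf3a3, its zinc-finger partner, stood at 316 CPM (305 to 328) and 267 CPM (257 to 278), a log2 fold of −0.24 that was 0.33 with TMM. Sf3a2 was too low to be measured, at 4.13 and 1.46 CPM. Sf3b1, the large scaffold that closes over the branch site, stood at 804 CPM (786 to 823) and 602 CPM (586 to 618), a log2 fold of −0.42 that was 0.15 with TMM. Its cells ran from 220 through 780 to 1420 CPM in granulocyte-monocyte-like BFU-E, from 130 through 770 to 1700 CPM in erythroid-like BFU-E and from 160 through 600 to 1230 CPM in CFU-E cells, and the groups overlapped throughout. Its ratio to the other scaffold, Sf3b3, differed a little, at 0.961 (0.931 to 0.993) on the BFU-E and 1.17 (1.13 to 1.22) on the CFU-E plate. That ratio also differed inside the BFU-E plate, at 1.08 (1.02 to 1.13) in granulocyte-monocyte-like and 0.890 (0.854 to 0.928) in erythroid-like cells.

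The small SF3b subunits differed more. Sf3b5 stood at 84.02 CPM (78.2 to 90.2) on the BFU-E and 31.2 CPM (27.7 to 35.1) on the CFU-E plate, and at 70.8 CPM (65.4 to 76.5) in BFU-E without cell 74, so its log2 fold was −1.40 with and −1.15 without that cell. With cell 74 kept, it was −0.997 when the cells were thinned with seed 2, and −1.06 when they were not thinned. The random thinning thus moved Sf3b5 to the other side of the 2-fold line. Its cells ran from 0 through 50 to 180 CPM in granulocyte-monocyte-like BFU-E, from 0 through 70 to 1290 CPM in erythroid-like BFU-E and from 0 through 30 to 100 CPM in CFU-E cells, which overlapped. Sf3b6, which touches the branch-site adenosine, stood at 89.8 CPM (83.8 to 96.1) and 43.2 CPM (38.9 to 47.7), with log2 folds of −1.04 and −0.84, so it passed the 2-fold line only with cell 74. Sf3b4, which binds RNA upstream of the branch site, stood at 53.6 CPM (48.96 to 58.5) and 61.8 CPM (56.7 to 67.2), a log2 fold of 0.20. The ratio of Sf3b4 to Sf3b5 was 0.638 (0.568 to 0.715) in BFU-E, 0.766 (0.679 to 0.862) without cell 74, and 1.98 (1.71 to 2.29) in CFU-E cells. It also differed inside the BFU-E plate, at 1.09 (0.901 to 1.31) in granulocyte-monocyte-like and 0.600 (0.512 to 0.702) in erythroid-like cells without cell 74. Sf3b2 stood at 453 and 334 CPM.

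The 7 genes of the Sm ring (Snrpb, Snrpd1, Snrpd2, Snrpd3, Snrpe, Snrpf and Snrpg), whose proteins form one ring in equal numbers, did not keep one proportion. Their median log2 fold was −0.93, and −0.80 without cell 74, with 3 of 7 and then 2 of 7 at least 2-fold lower, beside 32.5% of all genes in each case. With TMM and with median-of-ratios scaling 0 of 7 were, beside 17.9% and 16.9% of all genes, and the medians were −0.38 and −0.32. Snrpb stood apart as the highest, at 474 CPM (460 to 488) on the BFU-E and 564 CPM (548 to 579) on the CFU-E plate, a log2 fold of 0.25. Per cell Snrpb ran from 170 through 430 to 830 CPM in granulocyte-monocyte-like BFU-E, from 50 through 510 to 920 CPM in erythroid-like BFU-E, and from 220 through 550 to 1200 CPM in CFU-E cells, with overlap over most of the range. Snrpd3 was the lowest, at 34.9 CPM (31.2 to 38.9), or 28.5 CPM (25.1 to 32.1) without cell 74, against 11.8 CPM (9.65 to 14.3) in CFU-E cells. Its log2 fold of −1.49 was −1.09 with thinning seed 2 and −1.07 without thinning, both with cell 74 kept. Most cells of every group held only a few counts of Snrpd3: its medians were 20, 20 and 10 CPM in the same order, with highest cells of 100, 620 (cell 74) and 90 CPM. Snrpd2 stood at 50.3 CPM (45.9 to 55.1), or 45.5 CPM (41.2 to 50.1) without cell 74, against 19.9 CPM (17.1 to 23.04). The ratio of Snrpb to Snrpd3 was 13.6 (12.1 to 15.3), or 16.8 (14.8 to 19.1) without cell 74, on the BFU-E and 47.8 (39.4 to 58.5) on the CFU-E plate. Snrpd3 shares 6.74% of its exon bases with Gucd1 on the opposite strand, which stood at 22.8 and 65.3 CPM.

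Snrpe, at 75 and 35.96 CPM, had a log2 fold of −1.04, or −0.80 without cell 74. Snrpf stood at 42.6 and 21.9 CPM, Snrpg at 42.8 and 31.6 CPM and Snrpd1 at 130 and 72.5 CPM. Without cell 74 their log2 folds were −0.76, −0.24 and −0.80, and with TMM that of Snrpg was 0.13. Snrpf has 65.9% of its exon bases in Ccdc38, which itself stood at 0.109 and 0.449 CPM. Among erythroid cells only, 4 of the 7 were at least 2-fold lower (30.5% of all genes) and 2 without cell 74 (30.2%), with medians of −1.14 and −0.88. With TMM 1 of the 7 was lower there (14.9% of all genes, median −0.56), and with median-of-ratios scaling also 1 (14%, median −0.51). That gene was Snrpd3 under both, with cell 74 included, and neither scaling was repeated without the cell. Within the BFU-E plate the 7 genes were higher in erythroid-like than in granulocyte-monocyte-like cells (median log2 fold 0.55), but without cell 74 the median was 0.30, 6 of 7 lay above 0, and Snrpe stood at −0.05. The 3 shortest-transcript members, under 1000 bases (Snrpd1, Snrpe and Snrpf), had a median of −0.93 in CFU-E against BFU-E cells. For 311 protein-coding genes of that length it was −0.78, both with cell 74 included. Without that cell the 3 members stood at −0.80, −0.80 and −0.76. The median of all genes of that length was not recomputed without it, so the 2 cannot be compared there. The part of transcript length in the result was not tested.

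**Figure D4:**
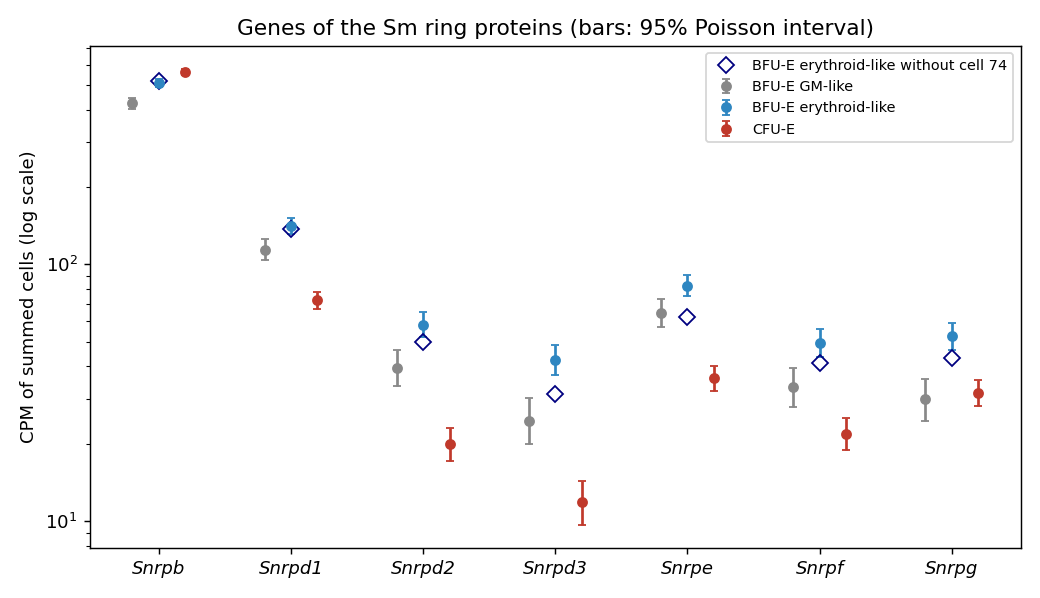
Level of the 7 Sm-ring genes (CPM of summed cells, log axis) in granulocyte-monocyte-like (GM-like) BFU-E, erythroid-like BFU-E and all CFU-E cells, with exact 95% Poisson intervals of counting error; open diamonds give erythroid-like BFU-E without cell 74. Snrpb is highest in CFU-E cells (564 CPM) while Snrpd3 is lowest there (11.8 CPM), and the diamonds lie below the filled erythroid-like points for all genes except Snrpb.

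Snrpn, an imprinted gene that encodes a Sm protein close to that of Snrpb and is best known in brain, stood at 4.89 CPM (3.57 to 6.54) on the BFU-E and 7.42 CPM (5.73 to 9.43) on the CFU-E plate, with a count in 17.4% and 43.8% of cells. Within the BFU-E plate it stood at 2.56 CPM in granulocyte-monocyte-like and 6.60 CPM in erythroid-like cells, so the erythroid cells of both plates lay close. The ratio of Snrpb to Snrpn was 96.9 (72.3 to 133) and 76 (59.6 to 98.4), intervals that overlap. Snrpn shares exon bases with Gm38393 (27.3%) and Snurf on its own strand. Of the proteins particular to the U1 and U2 snRNPs, Snrpa stood at 198 and 135 CPM, Snrpc at 8.48 and 7.53 CPM, Snrpa1 at 163 and 115 CPM and Snrpb2 at 60.6 and 31.01 CPM. All of these lay below 0 on the log2 scale with total-count scaling, and with TMM only Snrpb2 did. Snrpert, annotated as a processed pseudogene, was not measured, at 5.33 and 2.70 CPM. In all, 23 of the 53 genes share exon bases with another gene, 19 of them with a gene on the opposite strand.

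Level and fold went together in these plates for all genes. All genes at 20 to 100 CPM had a median log2 fold of −0.56 with or without cell 74. The 17 members of that range had a median of −1.04, the value of Sf3b6, and of −0.93 without that cell. At 100 to 500 CPM the values were −0.24 for all genes and −0.53 for 16 members. From 500 CPM they were 0.20 for all genes and −0.25 for 12 members. Only in the lowest range, 5 to 20 CPM, did the 5 members lie above all genes, at −0.15 against −0.96. Members of moderate and high level thus lay lower than the typical gene of their level, while over all levels the medians were close and only 5 of the 50 members lay in the lowest range.

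Inside the BFU-E plate the family was nearly flat. Of 50 members measured there, 0 were at least 2-fold higher in erythroid-like than in granulocyte-monocyte-like cells and 0 were lower, beside 8.3% and 13.5% of all 9921 measured genes; no test was made with 1 plate. The log2 folds ran from −0.88 to 0.88 with a median of 0.07, and 32 of 50 lay above the median of all genes. Without cell 74 the counts were also 0 and 0 of 49, beside 8.11% and 13.4% of all genes. Sf3b5 had the highest value, 0.88, or 0.53 without cell 74. Srsf9, at 16.4 CPM in granulocyte-monocyte-like and 8.49 CPM in erythroid-like cells, had the lowest. These groups come from 1 plate and 1 lane, unlike the plates compared above, and they were clustered without the splicing genes.

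Variation from cell to cell was compared within ranges of level. Among genes from 500 CPM, the median coefficient of variation was 0.357 for 14 members and 0.415 for all genes in erythroid-like BFU-E cells, and 0.333 for 11 members and 0.389 for all genes in CFU-E cells. The members' median also lay below that of all genes in each lower range on both plates. At 20 to 100 CPM in erythroid-like BFU-E cells it was 1.21 against 1.31, and only 8 of 15 members lay below the median of all genes. The range from 500 CPM has no upper limit, so levels inside it were not matched. Hnrnpa1 was the most even member in erythroid-like BFU-E cells (0.232), and Hnrnpf (0.207) and Hnrnpk (0.238) were the most even in CFU-E cells. Srsf6 (0.576) was the most variable of the 11 members from 500 CPM in CFU-E cells. Sf3b5, Sf3b6 and Snrpe had values of 1.67, 1.58 and 1.87 in erythroid-like BFU-E cells, and 0.673, 0.566 and 0.734 without cell 74.

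**Figure D5:**
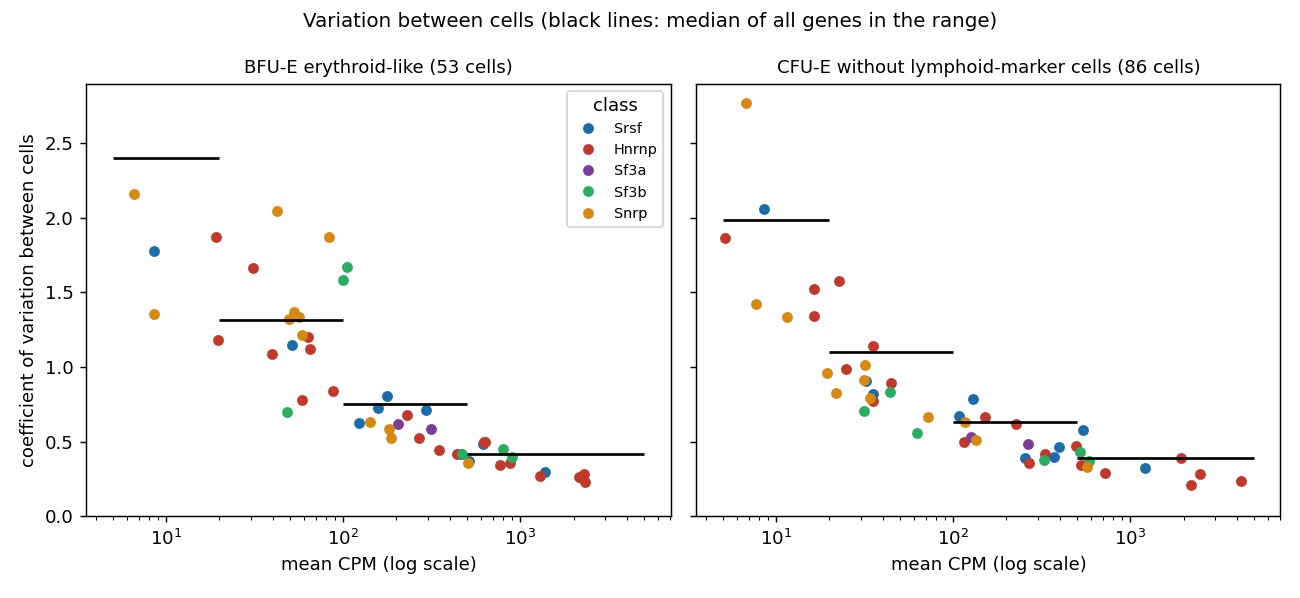
Coefficient of variation between thinned cells against mean level (CPM, log axis) for members of each class in erythroid-like BFU-E cells (left) and CFU-E cells without lymphoid markers (right); black lines give the median of all genes in 4 ranges of level. Most members lie below the lines; the points above 1.5 near 100 CPM on the left are Snrpe, Sf3b5 and Sf3b6, which rest on cell 74.

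Across the 86 CFU-E cells that lacked lymphoid markers, the summed level of the members went with the counts a cell had before thinning (Spearman rho 0.50, Pearson r 0.49). The value was 0.58 for the Hnrnp class, 0.53 for Hnrnpa1, 0.44 for Hnrnpk and 0.42 for Hnrnpf, and −0.26 for the Snrp class. In the 53 erythroid-like BFU-E cells the rho of the members' sum with depth was 0.09. Its rho with the summed S phase genes was 0.37 in CFU-E and 0.34 in erythroid-like BFU-E cells, and with the summed G2 and M phase genes −0.22 and −0.19. The classes differed: the rho of the Snrp class with the S phase genes was −0.32 in CFU-E and 0.0051 in erythroid-like BFU-E cells. Hnrnpa2b1 went with the erythroid markers among CFU-E cells (0.45) and Srsf6 against them (−0.33). These are descriptions over cells of 1 plate, lane and thinned depth, and shares of one total are not independent of each other. The part of depth in the differences between plates was not tested beyond leaving out deep and shallow wells.

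The other genes of splicing, 177 in 7 lists of which 164 were measured, gave 3 higher (1.83%) and 34 lower genes (20.7%) with total-count scaling, beside 5.98% and 32.5% of all genes. Their median of −0.57 was that of all genes. With TMM they gave 8 higher and 11 lower, beside 14.6% and 17.9% of all genes, and with median-of-ratios scaling 11 higher and 9 lower, beside 15.8% and 16.9%. Both shares thus lay below those of all genes under each scaling, while the balance of higher and lower depends on it. The counts of each list below are to be read beside the same shares of all genes.

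Among U1, U2 and 3′ splice site factors 0 of 21 were higher and 4 lower (19.05%), or 1 and 3 with TMM and 1 and 2 with median of ratios. They ran from Tia1 (252 and 52.5 CPM), an activator of weak 5′ splice sites, to Rbm17 (65.3 and 102 CPM). In the tri-snRNP and minor spliceosome list 1 of 29 was higher, Prpf6 (153 and 346 CPM), a bridge within the tri-snRNP, and 4 were lower (13.8%), with Zmat5 (14.6 and 4.38 CPM) the lowest. TMM gave 1 higher and 1 lower there and median of ratios 2 and 0, and the list's median turned from −0.30 to 0.27 and 0.33. The Prp19, catalytic and exon junction list gave 0 higher and 6 lower of 36 (16.7%), from Dhx38 (121 and 46.7 CPM), a helicase of the second step, to Bcas2 (184 and 248 CPM). None of these calls was left with the other scalings: TMM gave 0 and 0, and median of ratios 1 higher and 0 lower. The LSm list gave 0 higher and 2 lower of 12 (16.7%), from Lsm3 (50.1 and 17.4 CPM) to Lsm1 (30.4 and 48.9 CPM), which acts in mRNA decay. With either of the other scalings it gave 1 higher and 0 lower, so no direction can be given for it.

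The SMN and Sm-core assembly list, whose proteins load the Sm ring onto snRNAs, gave 2 higher and 2 lower of 14 (14.3% each) with total-count scaling. With TMM and with median of ratios it gave 4 higher (28.6%) and 0 lower, so the even split holds with total counts alone. Its highest gene was Strap (197 and 501 CPM; 2.54-fold, 2.41 to 2.69) and its lowest Coil (37.6 and 14.2 CPM), the coilin of Cajal bodies. The list's median was −0.09, or 0.46 with TMM, while that of the Sm ring itself was −0.93, or −0.38 with TMM. Of 12 SR kinases, phosphatases and import factors 0 were higher and 5 lower (41.7%), or 0 and 2 with either other scaling. They ran from Srpk2 (72.1 and 21.7 CPM), an SR protein kinase, to Tnpo3 (333 and 363 CPM), which carries SR proteins into the nucleus. Other regulators, a list that also holds Hnrnpdl and Hnrnpll, gave 0 higher and 11 lower of 43 (25.6%), or 1 and 5 with TMM and 2 and 5 with median of ratios. Celf2 was the lowest, with a log2 fold of −4.70 between the whole plates. Among erythroid cells only it was −7.35, at 276 CPM in erythroid-like BFU-E cells and 0.70 CPM in CFU-E cells without lymphoid markers. Elavl1 was the highest, at 146 and 248 CPM on the whole plates.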

How the data were processed

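Single cells were profiled by SmartSeq2 with Nextera XT tagmentation, which marks neither strand nor molecule, per the labels' protocols. The authors deposited raw read counts, aligned with STAR 2.4 to GRCm38 and counted with featureCounts, per the submitters' processing notes. Annotation release, multimapping and strand settings: not given in the sources used here. Of 192 cells, 191 columns matched a label by name, and 1 further column stayed out. Kept cells (at least 100000 counts and 2000 genes) were thinned to 100000 counts (seed 1) and summed to 9200000 BFU-E and 8900000 CFU-E counts. CPM carry exact Poisson intervals, folds and ratios exact conditional binomial intervals, and log2 folds a pseudocount of 1. A gene was measured at a mean of at least 5 CPM. With 1 sample per cell type there was no test, and cells were sorted singly, so no doublet caller was run.

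Clusters of the BFU-E plate (Ward linkage, 10 principal components, 1000 variable genes) left out all splicing genes, with 2 to 5 clusters tried and 2 chosen by silhouette. Gene positions and exon lengths came from GENCODE M21 (GRCm38), and promoters from RefSeq (GRCm38.p6). The scripts were tested on simulated data; edgeR 4.0.16 gave TMM factors and Python 3.11.15 with scipy 1.17.1 the rest. In each class the text gives in full the 2 highest and 2 lowest measured genes by log2 fold, the most abundant per length and a fixed panel, and from each pathway list the highest and lowest gene; other genes are given by their values and were chosen after these were seen. The members and lists were chosen with earlier results of these data known. Alternatives covered the cell filter, thinning, scaling, pseudocount, level filter, fold threshold, averaging, cell groups, the deepest wells and, added after seeing the data, cell 74.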

Additional observations from a re-analysis of the deposited data

How the results depend on the processing

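No paired analysis was possible because the cells share only title numbers and index pairs between the plates and the results come from no test. The count of 1 member higher by at least 2-fold in CFU-E became 4 with TMM, 4 with median-of-ratios scaling, 3 with the mean of log2 values per cell, 3 with a threshold of 1.5-fold, and 0 without the granulocyte-monocyte-like cluster and lymphoid-marker cells or without BFU-E cell 74. The 12 lower members became 2 with TMM, 2 with median-of-ratios scaling, 8 with a pseudocount of 5, 9 with the mean of log2 values per cell, 10 with the stricter cell filter or without cell 74, and 23 with the 1.5-fold threshold, and 11 to 13 under the others. Shares of all genes stand above for the scalings, the cell groups and cell 74. They were not computed for the other alternatives, so those counts have no background. The median log2 fold of −0.51 became 0.040, 0.095 and, without that cluster and those cells, −0.64. With the mean of log2 values per cell it was −0.48, where that of all genes was −0.24. It was −0.55 against −0.43 at a mean of at least 20 CPM, and −0.53 against −0.38 without a level filter. The 2 medians were closer in the other settings. Among erythroid cells only, with 0 higher, 12 lower and −0.64, TMM gave 3 higher, 4 lower and −0.054, and median-of-ratios scaling 4 higher, 4 lower and −0.0058. The shift of all genes by the scaling, from −0.57 to 0.01 or 0.06, is of the size of these moves. The 22 members given in full had 306 log2 folds under alternatives, of which 12 changed sign: Hnrnpa1, Sf3a3, Sf3b1, Srsf1, Srsf3 and Srsf10 under each of the 2 scalings. Splitting BFU-E cells by marker lists left out 29 cells, all 29 of them in the granulocyte-monocyte-like cluster. Even with the cells summed and above 20 CPM, the counting intervals did not cover all error. Thinning with seed 2 moved the log2 fold of Sf3b5 from −1.40 to −0.997, where its interval of counting error was 2.34-fold to 3.10-fold lower. Differences between animals, plates and lanes have no estimate.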
